A study of Mus musculus with 6 samples.

Results

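Genes that make, modify, store and burn fatty acids were examined in CAD cells, a mouse catecholaminergic line of central nervous system origin. The set has 52 named genes, taken by exact match of the gene symbol, and 51 of them have a row among the 26436 genes of the authors' deposited table. The remaining gene, the elongase Elovl2, has no row here. RNA was sequenced from 3 libraries of undifferentiated cells, grown with fetal bovine serum in DMEM/F12 medium, and from 3 libraries of cells differentiated for 5 days in DMEM/F12 without serum and with insulin, transferrin and selenium. Both groups are the same cell line with no genetic change named in the labels. Serum itself carries lipids, and its removal and the addition of insulin come together with differentiation, so their parts in any difference cannot be told apart. Separate cultures are not stated for the libraries within a group; p-values therefore cover the spread among these libraries alone, which may be technical. In such bulk RNA, fewer cells of a kind and less RNA per cell cannot be told apart.

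Fatty acids are built in the cytosol from acetyl-CoA, which ATP citrate lyase makes from citrate and which acetyl-CoA synthetases make from acetate. Acetyl-CoA carboxylase and fatty acid synthase build the saturated chain, and elongases and desaturases then lengthen it and add double bonds. Acyl-CoA synthetases activate the chain, after which it is either joined to glycerol and kept in lipid droplets, or carried by the carnitine shuttle into mitochondria and oxidised. The SREBP transcription factors drive many of the synthetic genes when sterols and unsaturated fatty acids are scarce, while PPAR factors drive many of the oxidative ones. Neuronal membranes hold long polyunsaturated chains, and neurons are known for a low capacity for fatty acid oxidation.

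All fold changes compare differentiated with undifferentiated cells and come from the authors' deposited table, which gives 1 value per gene and none per library. A gene is called when the authors' Wald test, adjusted over all tested genes, gives a p under 0.05. Group levels are implied values, computed from the authors' mean normalized count and fold change on the assumption that the mean covers 3 libraries of each group. All 10 neuronal and catecholaminergic markers examined have a row. After differentiation 4 were called higher, 2 lower, Dbh and Phox2a, and 4 were not called. Of these, Th had a mean of 91.3 normalized counts and Tubb3 of 16488, while Dbh, the enzyme that makes noradrenaline, fell by 5.35 on the log2 scale (SE 0.62) in the authors' deposited table. Of 8 adipocyte markers, Adipoq, Lep, Cidec and Fabp4 have no row here, Plin1 and Retn had means of 2.05 and 1.02 normalized counts, and Cfd had 15.8. The eighth, Pparg, which also encodes a regulator of the pathway, had a mean of 375 and was called lower. Among 8 glial markers, 6 have a row and 3 were tested. Mbp, at a mean of 20.3 normalized counts, was the 1 called, and it was higher. Among 6 macrophage and microglia markers, 2 have a row and 0 were tested.

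Transcripts of the fatty acid genes were more often higher than lower after differentiation. Of 51 tested members, 22 were called higher and 3 lower, and 26 were not called. Among all 20285 genes tested, 35.9% were called, 18.2% higher and 17.7% lower. Nearly all members are well expressed, and among the 13197 genes whose mean normalized count reaches 100 these shares were 47.5%, 21.9% and 25.6%. Of the members, 49 reach that mean, and Acss1 and Fabp3 do not. The counts by role and by list below are to be read beside the shares of these 13197 genes. The median log2 fold change of the members was 0.32, against 0.01 over all tested genes and -0.03 over those 13197. Among called members, 5 changed at least 2-fold, Thrsp, Acss2, Scd1, Scd2 and G0s2, all higher. Lpin1, at 2.32-fold, was not called.

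**Figure D1:**
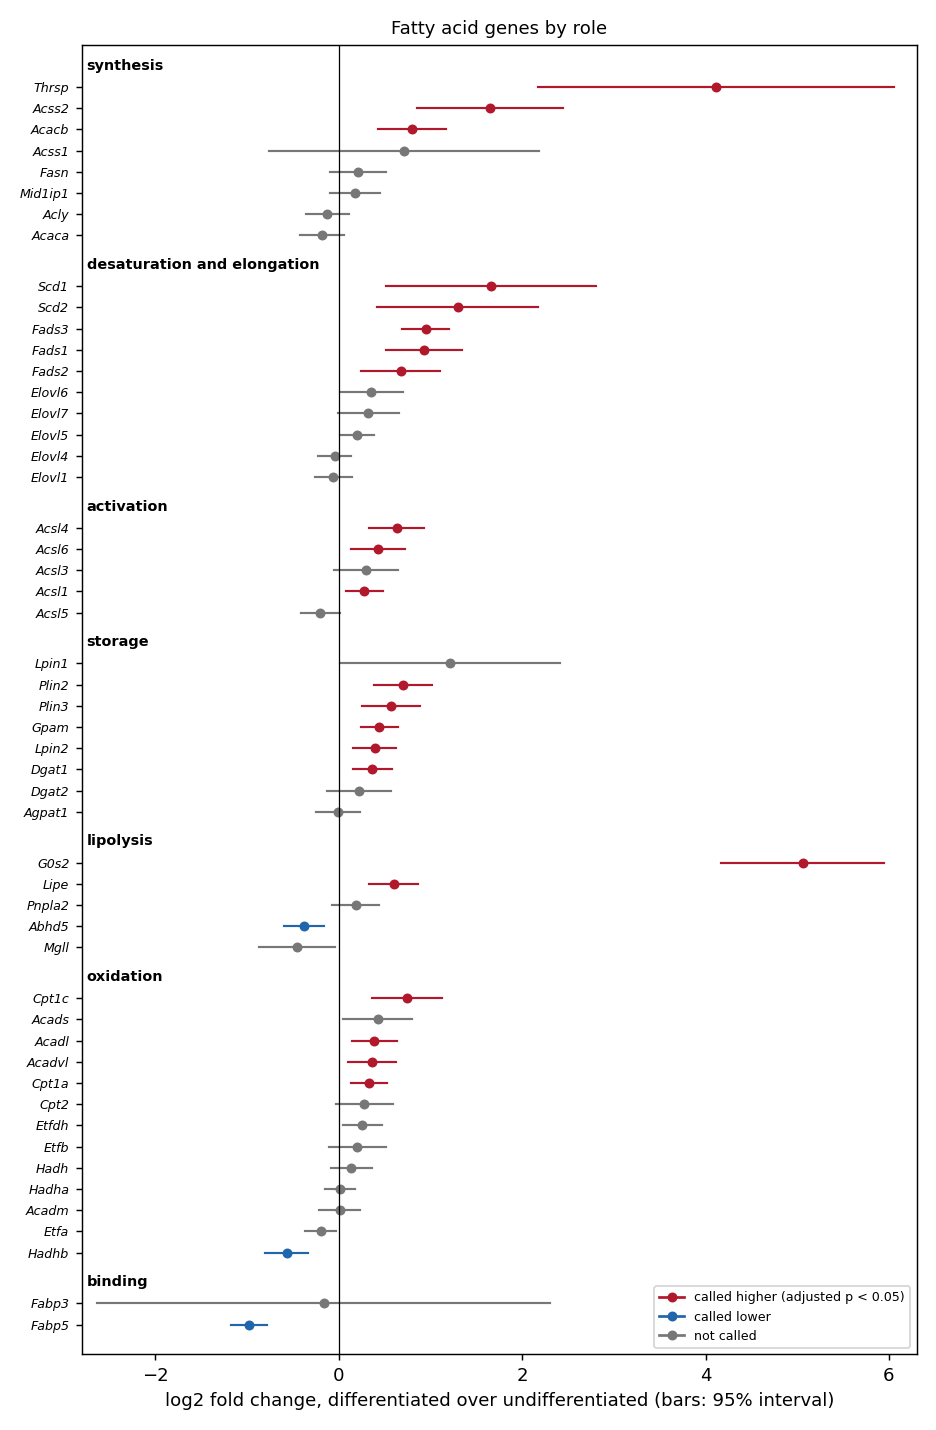
Log2 fold change of each of the 51 tested members (x axis, differentiated over undifferentiated cells), grouped by role, with points for the authors' estimates, bars for 95% intervals and colour for the call. The 22 members called higher include all 5 desaturases among the members, while G0s2 and Thrsp lie far to the right of the others and Abhd5, Hadhb and Fabp5 are the 3 called lower.

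The core of the synthetic pathway was already abundant in undifferentiated cells and was not called. Of 8 genes of acetyl-CoA supply and chain synthesis, 3 were called higher, Acss2, Acacb and Thrsp, and 0 lower, with a median log2 fold change of 0.46. Per kilobase of exon, Acly, the ATP citrate lyase gene, had an implied level of 13438 normalized counts in undifferentiated and 12300.4 in differentiated cells. Fasn, which encodes fatty acid synthase, followed with 3034 and 3516 per kilobase. In the authors' deposited table Acly stood at a log2 fold change of -0.13 (SE 0.12, adjusted Wald p 0.450) and Fasn at 0.21 (SE 0.16, adjusted Wald p 0.310). Acaca, the cytosolic acetyl-CoA carboxylase gene that commits acetyl-CoA to chain synthesis, was not called either, at -0.19 (SE 0.12) in the authors' deposited table. Its value is uncertain, since 30.4% of the distinct 50-base words of its transcripts occur in other genes, 29.2% in Gm5182. Gm5182 has no row here, and how shared reads were counted is not given in the sources used here. Their 95% intervals reached from 0.778 to 1.08-fold for Acly, from 0.937 to 1.43-fold for Fasn and from 0.744 to 1.04-fold for Acaca.

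Thrsp, a small nuclear and cytosolic protein gene that responds to thyroid hormone and diet in liver and fat, had the largest rise of the synthetic genes. Its implied level was 40.3 normalized counts in undifferentiated and 697 in differentiated cells. The log2 fold change was 4.11 (SE 0.99, adjusted Wald p 0.000208) in the authors' deposited table, and the 95% interval reached from 4.52-fold to 66.3-fold. Its relative Mid1ip1, whose product activates acetyl-CoA carboxylase, was at 0.17 (SE 0.14, adjusted Wald p 0.363) in the authors' deposited table, with implied levels of 2895 and 3268 normalized counts. Acss2, the nuclear and cytosolic enzyme that makes acetyl-CoA from acetate, went from an implied 793 to 2485 normalized counts. This was a 3.13-fold rise (95% interval 1.80 to 5.45) in the authors' deposited table (log2 fold change 1.65, SE 0.41, adjusted Wald p 0.000322). The mitochondrial counterpart Acss1 had a mean of only 7.64 normalized counts, and no difference was detectable at that level (log2 fold change 0.71, SE 0.75, in the authors' deposited table).

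Acacb, the carboxylase gene whose malonyl-CoA is made at the mitochondrial surface and restrains carnitine palmitoyltransferase, rose 1.74-fold (95% interval 1.35 to 2.25, log2 fold change 0.80, SE 0.19, adjusted Wald p 0.000162) in the authors' deposited table. It remained far below Acaca, at an implied 24.7 normalized counts per kilobase against 177 in differentiated cells.

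All 5 desaturase genes among the members were called higher, and none of the 5 elongase members with a row was called. Outside the members, the authors' deposited table has no call for the desaturase relatives Fads6 (log2 fold change -0.06, SE 0.09) and Scd4. Scd2 and Scd1 encode stearoyl-CoA desaturases, which place the first double bond in saturated chains. Scd2, the main form in mouse brain, had the highest level per kilobase of all members in differentiated cells, at an implied 29837 normalized counts, and stood second to Acly in undifferentiated cells, at 12161. The rise of Scd2 was 2.45-fold (95% interval 1.34 to 4.51, log2 fold change 1.29, SE 0.45, adjusted Wald p 0.0135) in the authors' deposited table. Scd1 rose 3.16-fold (95% interval 1.43 to 6.98, log2 fold change 1.66, SE 0.58, adjusted Wald p 0.0158) in the authors' deposited table, and implied levels went from 2505 to 7903 normalized counts per kilobase. Neither Scd call held at an adjusted p under 0.01.

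The Fads genes encode front-end desaturases, of which Fads1 and Fads2 insert the double bonds of polyunsaturated chains. Fads1 went from an implied 9769.9 to 18604 normalized counts, with a log2 fold change of 0.93 (SE 0.21, adjusted Wald p 6.54e-05) in the authors' deposited table. Fads2 was at 0.67 (SE 0.22, adjusted Wald p 0.00758) in the authors' deposited table, and implied levels went from 3682 to 5871. Fads3, which desaturates sphingoid bases, had the narrowest error of the family, at 0.95 (SE 0.13, adjusted Wald p 3.02e-11) in the authors' deposited table, and implied levels went from 1067 to 2055 normalized counts. The folds of Fads1, Fads2 and Fads3 were 1.90, 1.59 and 1.93, and their 95% intervals overlap. The 3 genes lie within 155 kb of each other on chromosome 19 (GRCm38, from 10041569 to 10196877), and the Scd genes lie within 205 kb of each other further along the same chromosome, from 44203269 to 44407879.

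Elongases add carbon units to the chain, and no difference of their genes was called. Elovl6, which acts on saturated chains made by fatty acid synthase, had the highest estimate at 0.36 (SE 0.18, adjusted Wald p 0.101) in the authors' deposited table, with implied levels of 1612 and 2063 normalized counts. Elovl7 was at 0.32 (SE 0.17), Elovl5 at 0.20 (SE 0.10), Elovl4 at -0.04 (SE 0.09) and Elovl1 at -0.06 (SE 0.10) in the authors' deposited table. The 95% interval of Elovl6 reached up to 1.62-fold.

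Promoter sequence was examined because desaturase and synthase genes are textbook targets of SREBP, which works together with the CCAAT-binding factor NF-Y. RefSeq windows (GRCm38.p6) were found for 46 of the 52 members, not including Scd1, Scd2, Fads1, Dgat1, Dgat2 and Fabp5, and the 250 bases before each annotated start were searched on both strands. The letters searched were TCACNCCAC for the sterol regulatory element, CACGTG for the E-box and CCAAT for the CCAAT box, and matches of the CCAAT box can overlap each other on opposite strands. The CCAAT box was present in 23 of 57 member windows (40.4%), belonging to 22 of these 46 members, and in 33.8% of all 32851 windows. By call, it was present in 12 of 18 members called higher, in 10 of 25 not called and in 0 of 2 called lower, with no test made. A member counts here if any of its windows has the box, so these counts cannot be set against the share of single windows. The E-box was found in 4 of 57 member windows (7.02%), of Elovl5, Lipe, Lpin2 and Mgll, and in 6.02% of all windows. The sterol regulatory element letters were found in 1 of 57 member windows (1.75%), of Acsl1, and in 1.05% of all windows. Sites with other letters, or outside these 250 bases, would not be found by this search, so a gene without a match may still have one. Shown are Fads3, which was called higher, Fasn, which was not, and the Acsl1 window with the sterol regulatory element, each 5′ to 3′ on the gene's strand with the matched letters in capitals.
Fads3 (chr19:10041298-10041547, plus strand): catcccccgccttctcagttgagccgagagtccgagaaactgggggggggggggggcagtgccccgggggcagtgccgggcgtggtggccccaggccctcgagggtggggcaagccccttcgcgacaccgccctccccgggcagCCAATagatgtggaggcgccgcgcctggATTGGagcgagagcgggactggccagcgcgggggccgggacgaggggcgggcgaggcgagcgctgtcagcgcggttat
Fasn (chr11:120824548-120824797, minus strand): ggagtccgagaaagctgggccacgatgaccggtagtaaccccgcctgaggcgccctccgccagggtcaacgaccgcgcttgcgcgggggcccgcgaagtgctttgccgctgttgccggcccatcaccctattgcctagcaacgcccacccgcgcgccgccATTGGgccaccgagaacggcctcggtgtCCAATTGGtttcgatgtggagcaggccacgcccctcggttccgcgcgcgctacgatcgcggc
Acsl1 (chr8:46490716-46490965, plus strand): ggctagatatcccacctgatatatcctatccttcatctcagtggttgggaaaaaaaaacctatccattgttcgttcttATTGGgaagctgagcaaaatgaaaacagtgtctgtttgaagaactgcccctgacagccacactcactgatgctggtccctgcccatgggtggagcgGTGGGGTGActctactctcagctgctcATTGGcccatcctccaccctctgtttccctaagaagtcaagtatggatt
Both the called Fads3 and the uncalled Fasn carry CCAAT boxes in either orientation, at 106 and 78 bases before the start in Fads3 and at 90, 62 and 59 in Fasn. In Acsl1 the sterol regulatory element letters begin 76 bases before the start that this window belongs to, and are read on the opposite strand. That start lies inside the gene, which begins at chr8:46471037 in GENCODE M21, so it is not the first start of Acsl1.

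Long-chain acyl-CoA synthetases activate fatty acids for later use. Of 5 members, 3 were called higher and 0 lower, with a median log2 fold change of 0.30. Acsl4, which prefers arachidonate and other polyunsaturated chains, had the largest change and the highest level, from an implied 711 to 1102 normalized counts per kilobase (log2 fold change 0.63, SE 0.15, adjusted Wald p 0.000247, in the authors' deposited table). Acsl6, the form enriched in brain, was at 0.43 (SE 0.15, adjusted Wald p 0.0162) and Acsl1 at 0.28 (SE 0.10, adjusted Wald p 0.0199) in the authors' deposited table, and neither passed an adjusted p of 0.01. Acsl3, which sits on nascent lipid droplets, was at 0.30 (SE 0.18) and Acsl5 at -0.20 (SE 0.11) in the authors' deposited table, and neither was called.

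**Figure D2:**
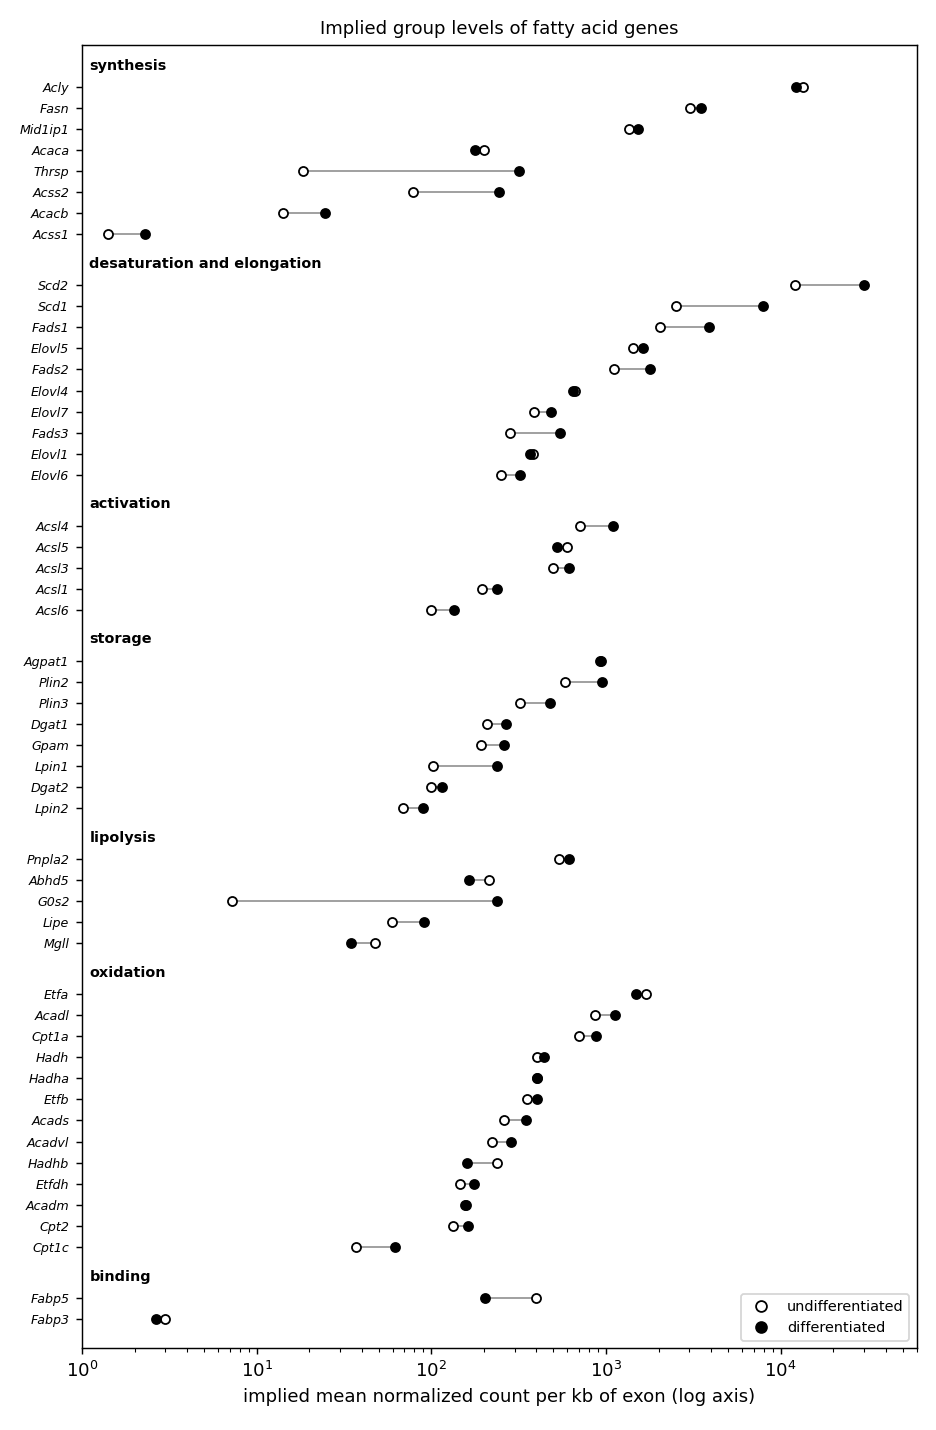
Implied mean normalized count per kilobase of exon (x axis, log scale) of each member with a row, grouped by role and ordered by level, with open circles for undifferentiated and filled circles for differentiated cells. Levels run from 1.40 for Acss1 to 29837 for Scd2, and the widest gaps between the groups are those of G0s2 and Thrsp, both low in undifferentiated cells.

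Of 8 members of glycerolipid assembly and lipid droplets, 5 were called higher and 0 lower, with a median log2 fold change of 0.41. Plin2, which coats lipid droplets in most cell types, rose from an implied 2056 to 3337 normalized counts (log2 fold change 0.70, SE 0.16, adjusted Wald p 8.53e-05) in the authors' deposited table. Plin3, a coat protein that moves between cytosol and droplets, was at 0.57 (SE 0.16, adjusted Wald p 0.00209) in the authors' deposited table. Gpam, the mitochondrial acyltransferase gene that starts glycerolipid synthesis, rose 1.36-fold (95% interval 1.18 to 1.56), the phosphatidate phosphatase gene Lpin2 1.31-fold (1.12 to 1.54) and Dgat1, which completes triacylglycerol, 1.29-fold (1.11 to 1.49) in the authors' deposited table. Dgat2, the other enzyme of that last step, was at 0.22 (SE 0.18) and Agpat1, the second acyltransferase, at -0.01 (SE 0.12) in the authors' deposited table. Lpin1 had the highest estimate of the role at 1.21, but with a standard error of 0.61 it was not called (adjusted Wald p 0.112) in the authors' deposited table. Its implied levels were 986 and 2283 normalized counts and its 95% interval reached from 1.01-fold to 5.33-fold.

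Lipolysis genes moved in opposite directions, with the largest fold change of all members in an inhibitor. Triacylglycerol is broken down in turn by adipose triglyceride lipase, the product of Pnpla2, by hormone-sensitive lipase, the product of Lipe, and by monoacylglycerol lipase, the product of Mgll. Abhd5 encodes the coactivator of the first lipase and G0s2 its inhibitor. G0s2 rose from an implied 6.25 to 208 normalized counts, with a log2 fold change of 5.06 (SE 0.45, adjusted Wald p 2.04e-26) in the authors' deposited table. The 95% interval reached from 18.0-fold to 61.7-fold, and the low starting level leaves the size of that fold poorly fixed. Abhd5 fell by 0.37 on the log2 scale (SE 0.11, adjusted Wald p 0.00335) in the authors' deposited table, and implied levels went from 1275 to 983 normalized counts.

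Pnpla2 itself was not called, at 0.18 (SE 0.13, adjusted Wald p 0.303) in the authors' deposited table, with implied levels of 1629 and 1849 normalized counts. Lipe rose 1.51-fold (95% interval 1.26 to 1.82, adjusted Wald p 9.48e-05) in the authors' deposited table, and implied levels went from 352 to 533. Mgll, which also ends the signal of the endocannabinoid 2-arachidonoylglycerol in neurons, was at -0.46 (SE 0.21, adjusted Wald p 0.0806) in the authors' deposited table and was not called.

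Of 13 members listed under oxidation, 4 were called higher, Cpt1a, Cpt1c, Acadl and Acadvl, and 1 lower, Hadhb, with a median log2 fold change of 0.26. The share called in either direction, 38.5%, was below the 47.5% of all genes whose mean reaches 100. By direction, 30.8% were called higher and 7.69% lower, against 21.9% and 25.6% of those genes. Cpt1a and Cpt1c encode forms of carnitine palmitoyltransferase, the entry gate of the mitochondrion, and Cpt1c is a neuronal form of the endoplasmic reticulum with little enzyme activity. The counts and shares of the oxidation members include Cpt1c all the same. Cpt1a rose 1.26-fold (log2 fold change 0.33, SE 0.10, adjusted Wald p 0.00408) and Cpt1c 1.67-fold (95% interval 1.28 to 2.18, adjusted Wald p 0.000822) in the authors' deposited table. Per kilobase Cpt1a was the more abundant in differentiated cells, at an implied 883 normalized counts against 61.9 for Cpt1c. Cpt2, which completes the transfer inside the mitochondrion, was at 0.28 (SE 0.16) in the authors' deposited table and was not called.

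The acyl-CoA dehydrogenases take the first step of each oxidation cycle on chains of different length. Acadl, for long chains, was at 0.39 (SE 0.13, adjusted Wald p 0.00845) and Acadvl, for very long chains, at 0.36 (SE 0.13, adjusted Wald p 0.0212) in the authors' deposited table, and both were called. Exons of Acadvl overlap those of Dvl2 on the opposite strand over 42.9% of their length, and the strand setting of the counting is not given in the sources used here, so reads of these genes may not have been told apart. Dvl2, with a mean normalized count of 1350.4, was at -0.04 (SE 0.13) in the authors' deposited table. Acads, for short chains, was at 0.42 (SE 0.19, adjusted Wald p 0.0676) and Acadm, for medium chains, at 0.01 (SE 0.11) in the authors' deposited table, and neither was called.

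Hadha and Hadhb encode the subunits of the mitochondrial trifunctional protein, and they start 85 bases apart on opposite strands of chromosome 5. Hadha was at 0.01 (SE 0.08, adjusted Wald p 0.942) in the authors' deposited table, with implied levels of 3509 and 3536 normalized counts. Hadhb fell by 0.57 on the log2 scale (SE 0.12, adjusted Wald p 2.62e-05) in the authors' deposited table, and implied levels went from 1562 to 1052. The difference between Hadha and Hadhb was not tested. The Hadhb value is uncertain, because Gm13910, which shares 18.1% of the distinct 50-base words of Hadhb transcripts, had nearly the same mean (1307 normalized counts for both) and the same log2 fold change of -0.57 in the authors' deposited table, so that both were not measured separately. Hadh was at 0.14 (SE 0.12) in the authors' deposited table. The electron transfer genes that take up the electrons of these dehydrogenases were not called, with Etfdh at 0.26 (SE 0.11, adjusted Wald p 0.0544), Etfb at 0.20 (SE 0.16) and Etfa at -0.20 (SE 0.09, adjusted Wald p 0.0646) in the authors' deposited table. Etfb shares 53.0% of its exonic bases with the same-strand gene model Gm45233, which has no row here.

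Fabp5, a fatty acid carrier of neural and epidermal cells, had the largest fall of all members. It went from an implied 1417 to 720.2 normalized counts, a fall to 0.508-fold (95% interval 0.443 to 0.583, log2 fold change -0.98, SE 0.10, adjusted Wald p 4.62e-20) in the authors' deposited table. The related sequences Gm6166 and Gm14328, which share 5.10% and 2.41% of its 50-base words, fell as well, with adjusted Wald p-values of 1.11e-15 and 1.81e-10 in the authors' deposited table. They may hold reads of Fabp5. Fabp3, the muscle form, had a mean of 2.32 normalized counts, too low to show a difference (-0.16, SE 1.26, in the authors' deposited table).

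Set against each other, synthesis with desaturation and elongation had 8 of 18 tested members called higher and 0 lower, and storage, lipolysis and oxidation had 11 of 26 higher and 2 lower. The medians of these sides were 0.51 and 0.30 on the log2 fold change scale, and 0.36 and 0.30 without genes whose mean is under 10, which leaves out Acss1. The shares called higher were 44.4% and 42.3%, with no test made between the sides. Of the 5 called members that rose at least 2-fold, 4 belong to the synthetic side and G0s2 to the other, where Lpin1 also had an estimate over 2-fold but was not called. A rise of at least 2-fold was called for 629 of the 13197 genes whose mean reaches 100.

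**Figure D3:**
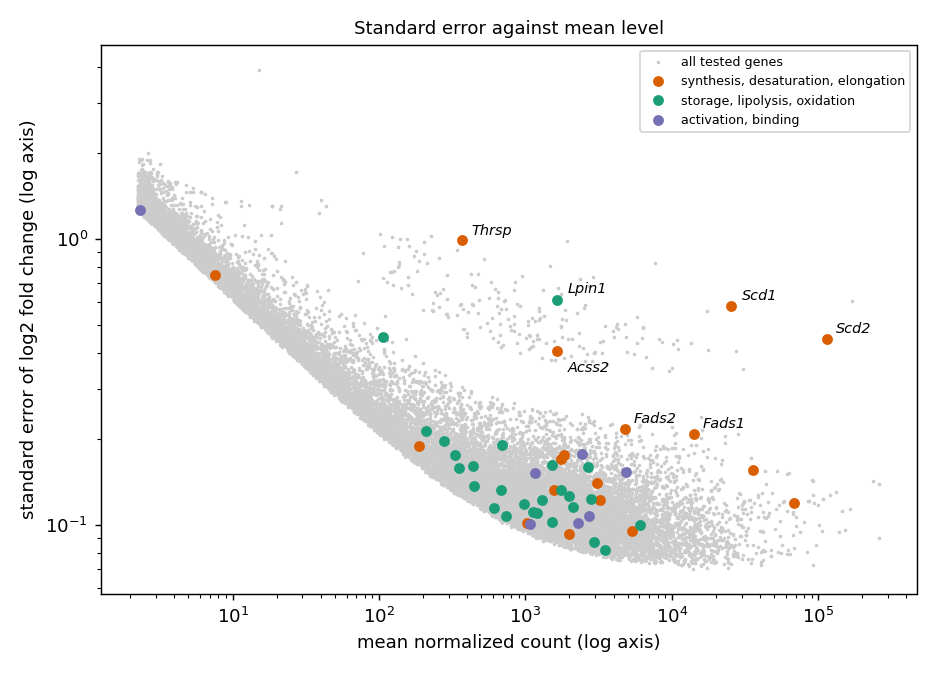
Standard error of the log2 fold change (y axis, log scale) against mean normalized count (x axis, log scale) for all 20285 tested genes in grey and the members in colour by side. Named are the 7 members whose error is over 2 times that of genes of equal mean, of which 6 belong to synthesis, desaturation and elongation and 1, Lpin1, to storage.

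The synthetic genes that rose most also had wide errors for their level. Each member's standard error was divided by the median of the genes nearest to it in mean. This ratio was over 2 for 7 of 51 members, against 1.99% of the 13197 genes whose mean reaches 100, and over 3 for 5 members, against 1.42%. The ratio was 6.36 for Thrsp, 6.15 for Scd1, 5.39 for Lpin1, 4.51 for Scd2 and 3.63 for Acss2, and 2.18 and 2.13 for Fads1 and Fads2. None of the 13 oxidation genes exceeded 1.5. A wide error at a given mean stands for a wider fitted spread between libraries, and the table does not give which library or group carries it. Whether 1 library sets these rises was not tested.

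Regulators of the pathway and genes outside the 52 were read from a further list of 94 genes. Of 78 tested, 34 were called higher and 7 lower, with a median log2 fold change of 0.37. That is 52.6% called, 43.6% higher and 8.97% lower, against 47.5%, 21.9% and 25.6% of the 13197 genes whose mean reaches 100. That mean was reached by 70 of the 78. Of 16 tested regulators, 7 were called higher and 3 lower. Srebf1, which encodes the SREBP form that favours fatty acid genes, rose 1.83-fold (95% interval 1.39 to 2.41, adjusted Wald p 0.000107), and Srebf2, the form that favours sterol genes, 1.56-fold (log2 fold change 0.64, SE 0.18, adjusted Wald p 0.00192) in the authors' deposited table. Insig1, which holds SREBP in the endoplasmic reticulum and is itself an SREBP target, was at 1.02 (SE 0.51, adjusted Wald p 0.105) in the authors' deposited table and was not called, and its standard error was 4.95 times that of genes of equal mean. Insig2 was at 0.71 (SE 0.14) in the authors' deposited table and was called.

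The PPAR genes were split. Ppara (2.14-fold, adjusted Wald p 2.19e-05) and Ppard (log2 fold change 0.96, SE 0.11), whose products activate oxidation genes, rose, and Pparg (log2 fold change -0.53, SE 0.15), whose product drives lipid storage in fat, fell in the authors' deposited table. Implied levels were 82.2 and 176 normalized counts for Ppara, 989 and 1919 for Ppard, and 443 and 308 for Pparg. Mlxipl, the carbohydrate-responsive activator of lipid synthesis, was not called in the authors' deposited table (mean normalized count 24.6, log2 fold change -0.19, SE 0.45). The coactivator Ppargc1a, at a mean of 0.982, received no adjusted p.

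**Figure D4:**
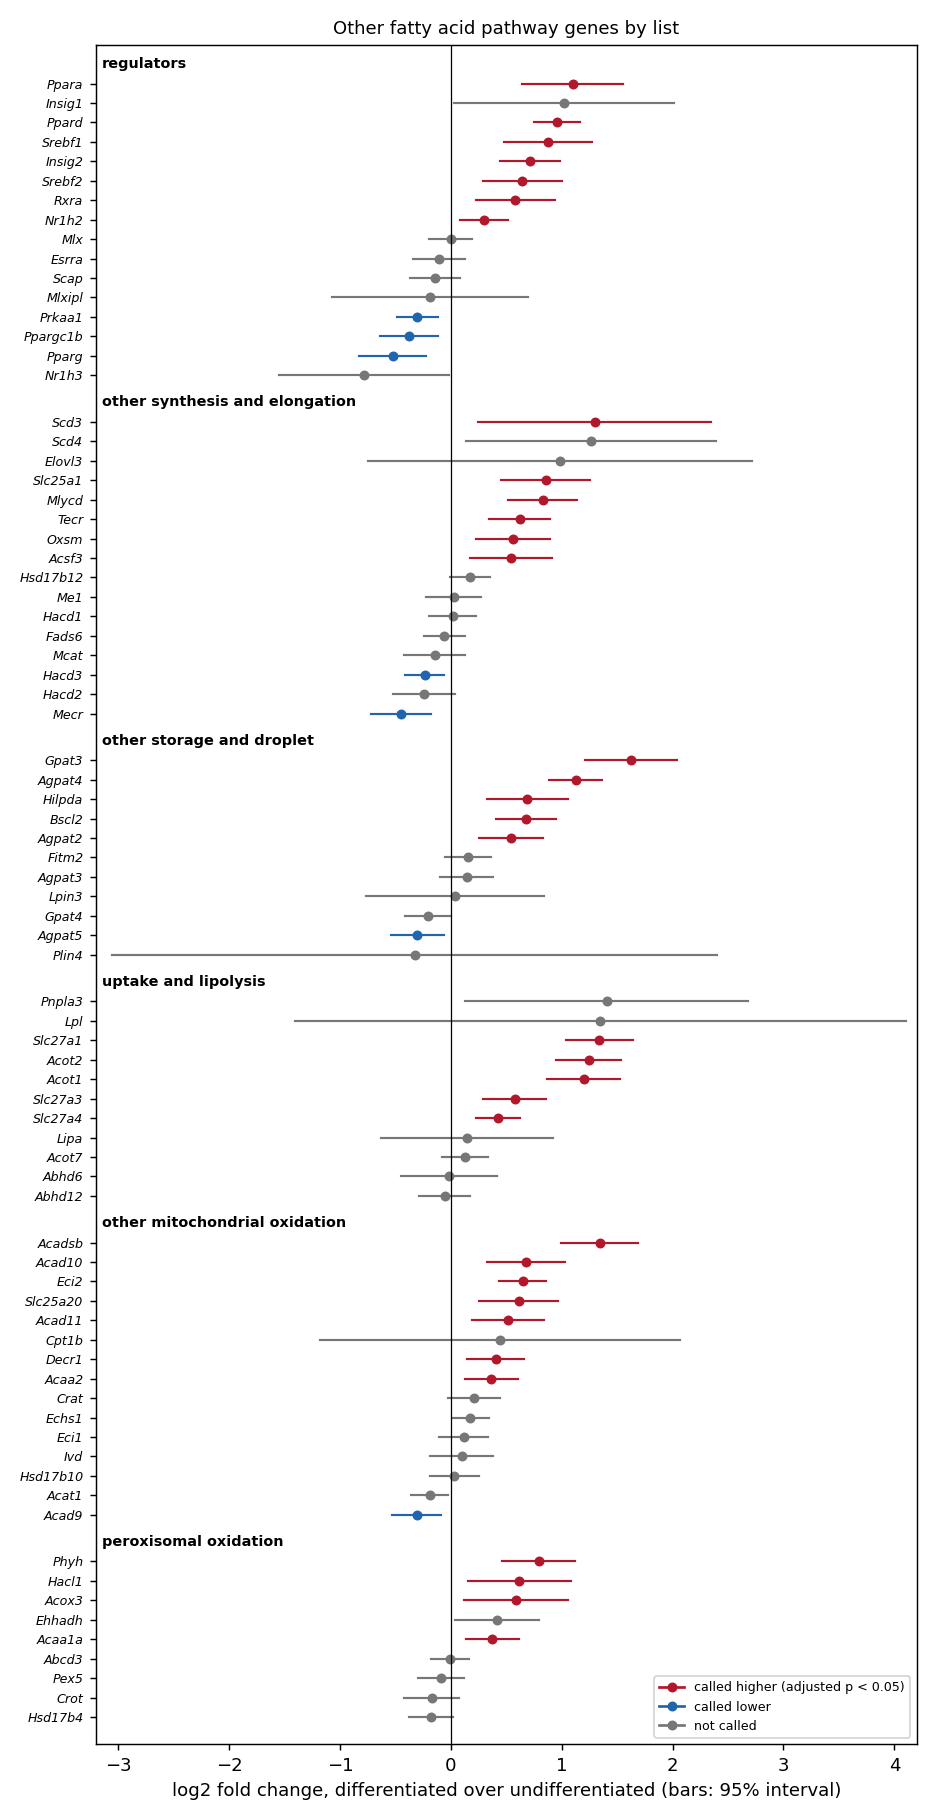
Log2 fold change (x axis, differentiated over undifferentiated cells) of the 78 tested genes of the further list, grouped by list, with points for the authors' estimates, bars for 95% intervals and colour for the call. Of these, 34 were called higher and 7 lower, with both directions among the regulators.

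Of 16 further genes listed under synthesis and elongation, 6 were called higher and 2 lower. The list includes Mlycd, whose product degrades malonyl-CoA and so builds no chain. The 2 called lower were Hacd3 (-0.23, SE 0.09) and Mecr (-0.45, SE 0.14) in the authors' deposited table. Slc25a1, the carrier that exports citrate for Acly, was at 0.85 (SE 0.20), Mlycd, which degrades malonyl-CoA, at 0.83 (SE 0.16), and Tecr, the last enzyme of each elongation round, at 0.62 (SE 0.14) in the authors' deposited table. Scd3 (1.30, SE 0.54, adjusted Wald p 0.0441) was called and Scd4 (1.26, SE 0.58, adjusted Wald p 0.0730) was not in the authors' deposited table. At most 6.54% of the 50-base words of any Scd gene occur in another gene, so most of their sequence can be told apart by 50 bp reads. These shares take no account of level. Scd2, at a mean of 114739 normalized counts, shares 2.49% of its words with Scd3 and 1.12% with Scd4, whose means were 5804 and 2516. Whether reads of Scd2 or Scd1 add to the Scd3 and Scd4 values was not tested, so these may not be separate measurements. The standard error of Scd3 was 5.41 times that of genes of equal mean.

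In storage, 5 of 11 further genes were called higher and 1 lower, led by the acyltransferase genes Gpat3 (1.63, SE 0.21, adjusted Wald p 5.16e-13) and Agpat4 (1.13, SE 0.12) in the authors' deposited table. The droplet assembly gene Bscl2, which encodes seipin, and Hilpda, another inhibitor of adipose triglyceride lipase, were at 0.68 (SE 0.14) and 0.69 (SE 0.19) in the authors' deposited table. For uptake and lipolysis, 5 of 11 were called higher and 0 lower. Slc27a1, a fatty acid transport protein gene, rose 2.53-fold (95% interval 2.05 to 3.12, adjusted Wald p 3.62e-16) in the authors' deposited table. Slc27a3 was at 0.57 (SE 0.14) in the authors' deposited table. Pnpla3, a lipase relative and SREBP target, was at 1.40 (SE 0.65, adjusted Wald p 0.0787) in the authors' deposited table and was not called.

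Of 15 further genes of mitochondrial oxidation, 7 were called higher and 1 lower. Acadsb, the dehydrogenase of short branched chains, had the largest change among those whose mean reaches 100, at 1.34 (SE 0.18, adjusted Wald p 1.52e-12) in the authors' deposited table. Slc25a20, which carries acylcarnitine between Cpt1 and Cpt2, was at 0.61 (SE 0.18), Eci2, an isomerase for unsaturated chains, at 0.65 (SE 0.11) and Acad10 at 0.68 (SE 0.18) in the authors' deposited table.

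The authors' deposited table of KEGG pathways, whose method beyond its headings is not given in the sources used here, lists 83 pathways as upregulated. In the authors' deposited table, biosynthesis of unsaturated fatty acids had a mean set statistic of 2.72 (q-value 0.000125, 27 genes), fatty acid metabolism 2.09 (0.00209, 50 genes), PPAR signaling 1.83 (0.00652, 66 genes) and fatty acid degradation 1.35 (0.0396, 40 genes). Glycerolipid metabolism was at 1.59 (q-value 0.0180, 54 genes) in the authors' deposited table. Fatty acid elongation, at 1.07 (q-value 0.0947, 26 genes), did not reach 0.05 in the authors' deposited table.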

How the data were processed

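RNA was purified on columns with DNase treatment and made into stranded libraries, sequenced as 50 bp single reads, per the labels' protocols. Per the submitters' processing notes, the build was GRCm38.p6 and the programs included DESeq2, STAR 2.5.1a, Trimmomatic 0.36 and FastQC 0.11.5. Neither the read counter nor its strand setting is given in the sources used here. Values of single libraries and their depth were not analysed here, and no test was refitted. The authors' signal for a gene is its mean normalized count, per the file headers. The authors' log2 fold change and log2 standard error are as deposited. The deposited score is the Wald statistic, which equals the fold change over its error (largest difference 1.24e-13). The deposited p-value is its normal p-value, adjusted by Benjamini-Hochberg over 20285 of 26436 genes. The remaining 6151 have means of at most 2.25 and no adjusted p. The deposited KEGG sheet stacks set statistics, read here as a score, and its 3 blocks under names not in the labels were not used.

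Members, role lists and tests were chosen with earlier results of these data known. The genes named are all members, and of the further lists up to 4 called genes with the largest change and a mean of at least 100, with Srebf1, Srebf2, Insig1, Mlxipl, Ppara and Ppargc1a; Scd4, Pnpla3, Pparg and others beside them were named after their values were seen. Some genes of the further lists are not reported here. Intervals are the fold change ± 1.96 standard errors. Where several rows carry 1 symbol, the row of the highest mean was used. Symbols on all 51 rows matched GENCODE M21 (GRCm38), which gave coordinates, exon lengths and transcripts. The calling step was run on fold changes simulated with the deposited standard errors, which cannot check those errors or the spread between libraries. Computation used Python 3.11.15, pandas 2.3.3 and scipy 1.17.1. Other thresholds, filters and scalings were tried, and a different assignment of roles.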

Additional observations from a re-analysis of the deposited data

How the results depend on the processing

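Adjusting over all genes with a p-value changed no member's call. At an adjusted p under 0.01, Scd1, Scd2, Acsl1, Acsl6 and Acadvl were no longer called. Etfdh was called higher when low means, under 10 or under 100, were left out and under both centrings. Etfa was called lower with the minimum of 100, and Elovl5 and Acads higher when centred on the median of the genes reaching it. Agpat1, not called, changed sign under both centrings (0.0232 and 0.0133). Against a null of at most 1.2-fold, 7 members were called higher and 1 lower (5 higher on the synthetic side; 2 higher and 0 lower for storage, lipolysis and oxidation), and 1532 and 1141 of all genes. This is a stricter question by construction. The members called higher then were Thrsp, Acss2, Acacb, Fads1, Fads3, Plin2 and G0s2. At the main threshold, counting acyl-CoA synthetases with synthesis gave 11 higher and 0 lower on the synthetic side. No paired analysis was possible because the table holds no library values, and for the same reason leaving out single libraries and a second count model were not run. The groups share no replicate numbers and no label pairs their libraries, so whether the libraries were matched between groups is not known. What the unknown depth limits is seen in Acss1 and Fabp3.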

Other observations

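Peroxisomes shorten very long and branched chains before mitochondria take them over. Of 9 tested genes of peroxisomal oxidation, 4 were called higher and 0 lower, with a median log2 fold change of 0.37. All 9 have a mean of at least 100, and of all genes reaching that mean 21.9% were called higher and 25.6% lower. Phyh, the first enzyme of branched-chain alpha-oxidation, was at 0.79 (SE 0.17, adjusted Wald p 1.85e-05) and Hacl1, a later enzyme of that route, at 0.62 (SE 0.24) in the authors' deposited table. Acox3, an oxidase for branched chains, was at 0.59 (SE 0.24) in the authors' deposited table.

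Acyl-CoA thioesterases release free fatty acid from its activated form. The neighbouring genes Acot1 and Acot2 rose from an implied 151.7 to 348 and from 472 to 1118 normalized counts (adjusted Wald p 3.91e-11 and 5.47e-15 in the authors' deposited table). Of the 50-base words of Acot1, 13.6% occur in Acot2, and how shared reads were counted is not given in the sources used here. Acot7, the abundant brain form, was at 0.13 (SE 0.11) in the authors' deposited table. Acot7 was named after its value was seen.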
